A study of Caenorhabditis elegans with 7 samples.

Results

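The fatty acid desaturase genes fat-1 to fat-7 of C. elegans were examined together with 3 upstream genes. These were fasn-1 and pod-2, which act before them in fatty acid synthesis, and the regulator gene sbp-1. The 10 genes were chosen by name, and every probe set that the platform annotation gives to one of them alone was used. This gave 11 of the 22548 probe sets tested, or 10 of 17118 named genes, with 2 probe sets for fasn-1 and 1 for each of the others. A probe set is a group of short probes read together as 1 value. The worms were of the wild-type strain N2, age-synchronized, grown from the egg for 3 days at 20°C and collected whole as young adults. The control worms were grown on NGM, the standard nematode agar medium (4 arrays, titled SL1, SL5, SL9 and SL69), and the treated worms on NGM with 1 µg/mL of 13L, a synthetic copy of a peptide first purified from a cocoa by-product (3 arrays, SL4, SL8 and SL12). No transgene or mutation was present in either group. The study also measured body fat in such worms, and the comparison of the diets asks whether transcripts of fatty acid synthesis differed with the peptide.

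In C. elegans, acetyl-CoA carboxylase and fatty acid synthase build saturated fatty acids, which the desaturases turn into monounsaturated and polyunsaturated ones by adding double bonds at set positions. FAT-5, FAT-6 and FAT-7 introduce the first double bond into palmitic or stearic acid. FAT-2 makes linoleic acid from oleic acid, and FAT-3, FAT-4 and FAT-1 complete the long polyunsaturated fatty acids, among them arachidonic and eicosapentaenoic acid. The worm is unusual among animals in making all of these itself. SBP-1, the homologue of the mammalian sterol regulatory element binding proteins, is a known activator of several of these genes. In a gene table of the WBcel235 assembly, fat-1 lay next to fat-2 and fat-3 next to fat-4, with 0 protein-coding genes between them.

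All values are on the log2 scale, so a difference of 1 is a doubling. A value measures 1 probe set across arrays, and no gene was called more abundant than another from it. Within-array differences between related genes were compared between the diets, and sums over marker genes between arrays. In such a sum the brightest probe sets weigh most. The correlation between pairs of arrays, over all probe sets, lay between 0.982 and 0.995. Worms lack the targets of the 5 yeast control probe sets, of which the brightest had a mean of 0.74, and all 11 probe sets of the 10 genes lay above it, with 2.84 for pod-2 on SL1 as their lowest value on any array. All 11 intestine markers measured also lay above it, and their summed linear level (the sum of 2 to the power of the log2 values) ran from 4891 to 5219 on NGM and from 4778 to 5188 in 13L. Most of this sum came from vit-5 and vit-6, with mean log2 values of 10.88 and 10.90 over all arrays. Of the 11 intestine markers, 3 had a difference (13L minus NGM) above 0 and 8 below 0 (median -0.03). Of the marker lists for other cells, 1 had sums that did not overlap between the diets, that of 12 neuron markers, with 216 to 219 on NGM and 190 to 206 in 13L. Of these markers, 10 had a difference below 0 and 2 above (median -0.22, against 0.16 for the 11 probe sets), and 2 were lower at an unadjusted p under 0.05, beside 2.57% of all probe sets, and 0 higher, beside 2.54%. The marker unc-31 was no brighter than the yeast controls. In the neuron sum snb-1 weighed most, with a mean log2 value of 6.78 over all arrays and a difference of -0.03. Its dimmer probe set (mean 6.54) differed by 0.11. On that probe set all 13L arrays lay above the NGM arrays, as for 3.31% of all probe sets. The neuron sum was not taken with it, so the lack of overlap holds for the brightest probe sets only. The sums of 7 hypodermis markers (458 to 725 on NGM, 515 to 762 in 13L), 10 oocyte markers (3644 to 4367 and 3607 to 4472) and 6 embryo markers (101 to 120 and 99.0 to 132) overlapped. At an unadjusted p under 0.05, 1 oocyte marker, oma-1, was higher and 1 embryo marker, ceh-51, was lower. The part of these markers in the results was not tested. The RNA came from whole worms, so fewer cells of a type and less RNA per cell cannot be told apart. The labels do not say that the arrays came from separate cultures, while the study's methods name them biological replicates.

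No probe set of the 10 genes differed between 13L and NGM at an adjusted p under 0.05 (limma, lowest adjusted p = 0.944), and 0% of all probe sets tested did in either direction. Taking 13L minus NGM, 9 of the 11 differences were positive and 2 negative, beside 51.6% positive among all probe sets tested. The median difference was 0.16 over the 11, and 0.01 over all probe sets. At an unadjusted p under 0.05, 2 were higher in 13L, beside 2.54% of all probe sets, and 0 were lower, beside 2.57%. These were the probe set of fat-4 and the dimmer probe set of fasn-1. For 1 of the 11, that of fat-4, the lowest 13L array exceeded the highest NGM array, as for 3.31% of all probe sets. For 0 of the 11 did every 13L array lie below, as for 2.77% of all. With SL1 and SL69 left out, 0 of the 11 had an unadjusted p under 0.05.

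The groups did not overlap for fat-4 (probe set 193726_at), which encodes the delta-5 desaturase that makes arachidonic and eicosapentaenoic acid. Its values were 6.79 on SL1, 6.92 on SL5, 6.65 on SL9 and 6.84 on SL69 with NGM, and 7.08 on SL4, 7.06 on SL8 and 7.05 on SL12 with 13L. The 13L arrays were all higher than the NGM arrays, and they lay within 0.03 of each other, against 0.27 for NGM. On NGM the mean was 6.80 ± 0.11 (SD, n = 4), with 13L 7.06 ± 0.01 (SD, n = 3), and the difference was 0.26 (95% interval 0.05 to 0.47), or 1.20-fold. The unadjusted p was 0.0192 and the adjusted p 0.944 from limma, and fat-4 held rank 398 by p among all probe sets. Over the 35 ways to split 7 arrays into 3 and 4, the exact permutation test gave p = 0.0571 (two-sided), the smallest this design allows. With single arrays left out the difference stayed between 0.21 and 0.30, and the unadjusted p exceeded 0.05 without SL9 (0.0511, adjusted p = 0.846) and without SL4 (0.0502, adjusted p = 0.873).

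The neighbouring gene fat-3 (187910_at), for the delta-6 desaturase that acts before FAT-4, had values of 6.37 on SL1, 6.47 on SL5, 6.34 on SL9 and 6.62 on SL69, and of 6.24 on SL4, 6.47 on SL8 and 6.61 on SL12. The groups overlapped over almost their whole range. On NGM the mean was 6.45 ± 0.13 (SD, n = 4), with 13L 6.44 ± 0.19 (SD, n = 3), and the difference was -0.01 with a 95% interval of -0.28 to 0.26. To see whether the diets moved the neighbours unequally, the value of fat-4 was subtracted from that of fat-3 on each array. This gave -0.43 on SL1, -0.45 on SL5, -0.31 on SL9 and -0.21 on SL69, and -0.84 on SL4, -0.59 on SL8 and -0.44 on SL12. On average the value was lower in 13L by 0.27 on the log2 scale (95% interval of the difference, 13L minus NGM, -0.58 to 0.03), and the groups overlapped only between SL12 and SL5. The exact permutation test gave p = 0.114 (two-sided), and 0.571 adjusted over the 5 pairs of desaturases compared.

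For the other pair of neighbours the groups overlapped. For fat-1 (176915_at), which encodes the omega-3 desaturase, the values were 7.94 on SL1, 7.97 on SL5, 7.81 on SL9 and 7.61 on SL69, and 7.87 on SL4, 7.91 on SL8 and 7.89 on SL12. The 13L arrays lay within the range of the NGM arrays. The difference was 0.05, with a 95% interval of -0.19 to 0.30, so a change beyond 1.23-fold in either direction fell outside the interval. For fat-2 (192186_at), the delta-12 desaturase that starts the polyunsaturated branch, the values were 7.48 on SL1, 7.52 on SL5, 7.23 on SL9 and 7.47 on SL69, and 7.39 on SL4, 7.58 on SL8 and 7.80 on SL12. SL9 was the lowest array and SL12 the highest, and the groups overlapped. The difference was 0.16, with a 95% interval of -0.12 to 0.44 (unadjusted p = 0.218, adjusted p = 0.946 from limma), and it was 0.06 without SL12. The within-array value of fat-1 minus fat-2 differed between the diets by -0.11 (95% interval -0.49 to 0.27, exact permutation test, two-sided p = 0.457, adjusted over the 5 pairs 0.914).

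**Figure D1:**
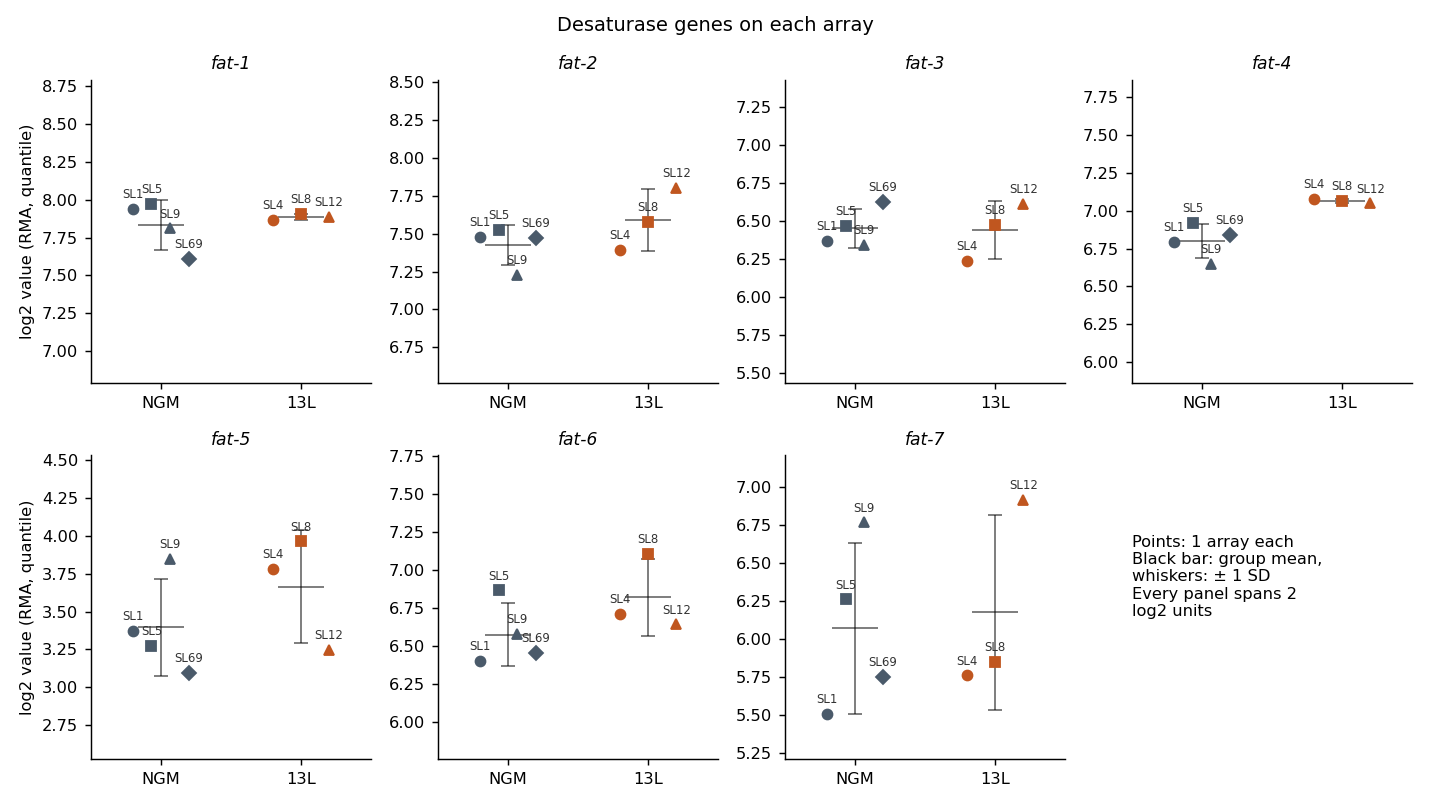
Log2 values of the 7 desaturase probe sets (y axis) for the diets NGM and 13L (x axis), with 1 point per array labelled by its title, the group mean as a bar and 1 SD as whiskers. The 13L arrays of fat-4 all lie above the NGM arrays, while fat-7 spreads from 5.51 to 6.92 with both diets overlapping.

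The stearic acid desaturases fat-6 and fat-7, which are close homologues and partly stand in for each other, were highest on different arrays. For fat-6 (187997_s_at) the values were 6.40 on SL1, 6.86 on SL5, 6.58 on SL9 and 6.45 on SL69, and 6.71 on SL4, 7.11 on SL8 and 6.64 on SL12. The highest array was SL8 of the 13L group, and SL5 of the NGM group lay above SL4 and SL12. The NGM mean was 6.57 ± 0.21 (SD, n = 4), with 13L 6.82 ± 0.25 (SD, n = 3), and the difference was 0.24 (95% interval -0.10 to 0.59, unadjusted p = 0.140, adjusted p = 0.944 from limma). Without SL8 it was 0.10, and without SL5 it was 0.34 (unadjusted p = 0.0432, adjusted p = 0.928). The probe set of fat-6 carries the suffix _s_at, by which Affymetrix marks probe sets shared between transcripts. The annotation names fat-6 alone for it, and whether it also measures fat-7 was not tested.

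For fat-7 (192578_at) the values were 5.51 on SL1, 6.26 on SL5, 6.77 on SL9 and 5.75 on SL69, and 5.76 on SL4, 5.85 on SL8 and 6.92 on SL12. The arrays of each diet spread widely, 2.40-fold from lowest to highest on NGM and 2.23-fold in 13L, and the highest array of each was SL9 and SL12. On NGM the mean was 6.07 ± 0.56 (SD, n = 4), and with 13L 6.18 ± 0.64 (SD, n = 3). The difference of 0.10 had a 95% interval of -0.69 to 0.90. This interval holds no change as well as changes from 0.621-fold to 1.86-fold. The spread within the diets was larger than that of 98.6% of all probe sets, against 11.9% for fat-4 and 15.7% for sbp-1. The direction of the difference rested on single arrays, with -0.27 without SL12 and 0.34 without SL9. The value of fat-6 minus fat-7 within an array ran from -0.27 on SL12 to 1.26 on SL8, and its difference between the diets was 0.14 (95% interval -1.10 to 1.38, exact permutation test, two-sided p = 0.743, adjusted over the 5 pairs 0.914).

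By their numbers, the array titles fall into runs, with SL1 and SL4 in the first, SL5 and SL8 in the second, SL9 and SL12 in the third, and SL69 by itself. The sources do not call these runs a batch. For fat-7, the 13L array minus the NGM array of the same run was 0.26, -0.41 and 0.15. With the runs as blocks the difference of fat-7 was -0.0030, with a standard error of 0.14 against 0.35 without blocks, and SL69, alone in its block, added nothing to it. For fat-4 the differences in the runs were 0.28, 0.15 and 0.40, for fat-6 they were 0.31, 0.24 and 0.06, and for the dimmer probe set of fasn-1 they were 0.12, 0.71 and 0.53. These 3 of the 11 probe sets were higher in 13L in every run, as were 14.6% of all probe sets tested. With the runs as blocks, 2 of the 11 were higher at an unadjusted p under 0.05, those of fat-4 and of fasn-1 again, beside 3.82% of all probe sets, and 0 were lower, beside 4.06%. None passed when adjusted (lowest adjusted p among the 11 = 0.525 from limma, for fasn-1).

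The summed levels of sperm, of muscle and of hypodermis markers stood in nearly the same order of arrays as fat-7, while single markers differed from it. The summed linear level of 8 measured sperm markers was 25.8 on SL1, 34.9 on SL4, 48.96 on SL69, 94.8 on SL8, 104.3 on SL5, 108 on SL9 and 149 on SL12. From lowest to highest, the arrays stood in the order SL1, SL69, SL4, SL8, SL5, SL9 and SL12 for fat-7, which differs from this order only in the places of SL4 and SL69. A large part of the highest sums came from msd-2, a gene of the major sperm protein domain family, with a log2 value of 2.31 on SL1 and of 6.97 on SL12. Another sperm marker, spe-44, was lowest on SL12 (3.03) and highest on SL8 (3.95). The markers spe-11, spe-38 and fer-1 were no brighter than the yeast controls. The summed level of 6 muscle markers ran from 626 on SL1 to 789 on SL9 and 840 on SL12, but the muscle myosin gene myo-3 was highest on SL69 (3.85). Over the groups, the sperm sum spanned 25.8 to 108 on NGM and 34.9 to 149 in 13L, and the muscle sum 626 to 789 and 667 to 840. These lists were set beside fat-7 after the values were seen, and their part in its spread was not tested.

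**Figure D2:**
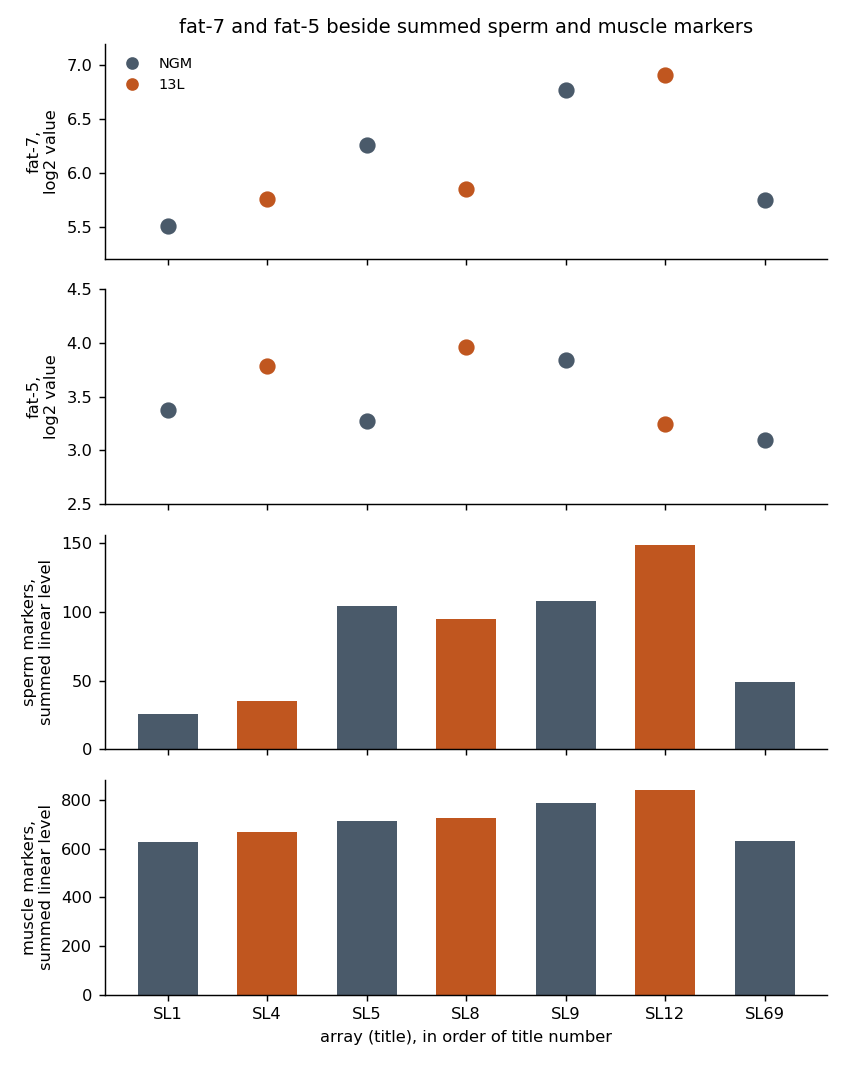
Log2 values of fat-7 and fat-5 (upper panels) and the summed linear level of 8 sperm and 6 muscle markers (lower panels, bars from 0) on each array, in order of title number on the x axis and coloured by diet. SL9 and SL12 are highest for fat-7 and for both marker sums, while fat-5 is high on SL9 (3.85) and low on SL12 (3.25).

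The palmitic acid desaturase gene fat-5 (192357_at) had yet another pattern. Its values were 3.37 on SL1, 3.27 on SL5, 3.85 on SL9 and 3.10 on SL69, and 3.78 on SL4, 3.96 on SL8 and 3.25 on SL12. SL8 stood above all 4 NGM arrays, SL4 above 3 of them, and SL12 stood below SL1, SL5 and SL9. The NGM mean was 3.40 ± 0.32 (SD, n = 4), with 13L 3.66 ± 0.37 (SD, n = 3), and the difference was 0.27 (95% interval -0.21 to 0.74, unadjusted p = 0.238, adjusted p = 0.95 from limma). Without SL12 the difference was 0.48 (unadjusted p = 0.0432, adjusted p = 0.964), and without SL8 it was 0.12. Within arrays, fat-5 minus fat-6 differed between the diets by 0.02 (95% interval -0.62 to 0.67, exact permutation test, two-sided p = 0.914, adjusted over the 5 pairs 0.914). For fat-5 minus fat-7 it was 0.16 (95% interval -1.22 to 1.54, exact permutation test, two-sided p = 0.743, adjusted over the 5 pairs 0.914). Of the 5 pairs of desaturases compared, none passed.

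The genes whose values, each centred on its own mean, followed these desaturases most closely over the 7 arrays were found among the 17118 named genes. With so many genes and 7 arrays, close matches occur without any relation between the genes. For fat-7 they were cyp-35C1, a cytochrome P450 gene, with a root mean square difference of 0.08 on the log2 scale, cyn-2, a cyclophilin gene, with 0.10, and C33F10.11 with 0.12. The values of cyp-35C1 were 3.70 on SL1, 4.45 on SL5, 5.04 on SL9 and 4.10 on SL69, and 3.98 on SL4, 4.14 on SL8 and 4.99 on SL12, so it too was highest on SL9 and SL12. For fat-6 the closest were ech-3, of the enoyl-CoA hydratase family, with 0.06, eri-5 with 0.07 and C17H12.5 with 0.08. For fat-5 they were Y53G8AM.8 with 0.12, T15D6.11 with 0.14 and klo-1 with 0.15. The values of T15D6.11 were no higher than 0.54 on any array, below the brightest yeast control. Those of C33F10.11 lay below it on SL1 (0.13), SL69 (0.23), SL4 (0.47) and SL8 (0.67). Those of C17H12.5 did so on SL1 (0.39) and SL69 (0.64).

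**Figure D3:**
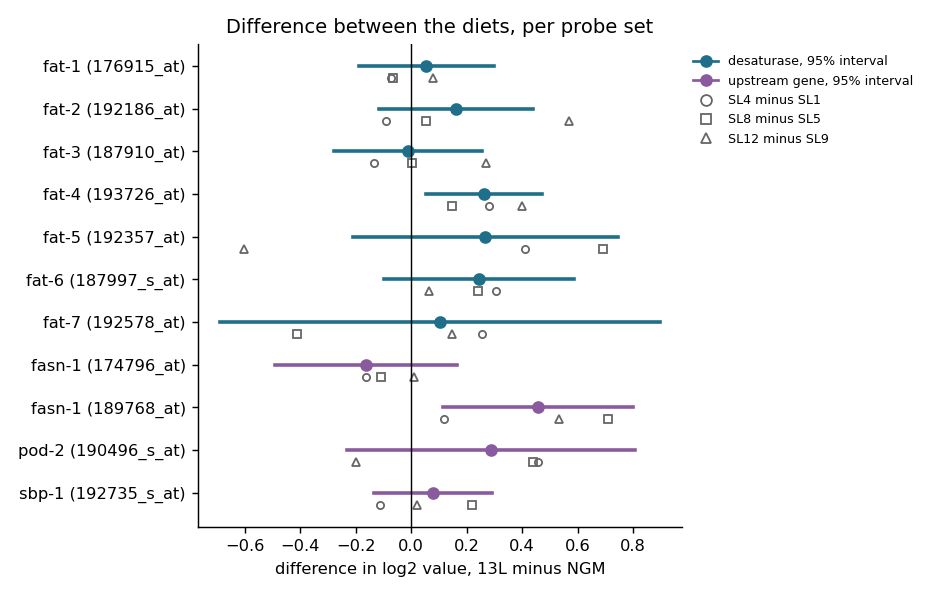
Difference in log2 value between 13L and NGM (x axis) for each of the 11 probe sets (y axis), with the 95% interval from limma as a line and the difference within each run of title numbers as an open symbol. The intervals of fat-4 (0.05 to 0.47) and of 1 probe set of fasn-1 (0.11 to 0.80) lie above 0, and that of fat-7 is the widest.

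Before the desaturases, fasn-1 encodes fatty acid synthase, which builds palmitic acid, and its probe sets went opposite ways. The brighter one, 174796_at, had 5.41 on SL1, 5.74 on SL5, 5.64 on SL9 and 5.90 on SL69, and 5.25 on SL4, 5.63 on SL8 and 5.65 on SL12. On NGM the mean was 5.67 ± 0.20 (SD, n = 4), with 13L 5.51 ± 0.23 (SD, n = 3), and the difference was -0.16 (95% interval -0.49 to 0.16, unadjusted p = 0.290, adjusted p = 0.952 from limma). The dimmer one, 189768_at, had 3.63 on SL1, 3.61 on SL5, 3.82 on SL9 and 3.67 on SL69, and 3.75 on SL4, 4.32 on SL8 and 4.35 on SL12. SL8 and SL12 lay above all NGM arrays, and SL4 lay below SL9. On NGM the mean was 3.68 ± 0.09 (SD, n = 4), with 13L 4.14 ± 0.34 (SD, n = 3), and the difference was 0.46 (95% interval 0.11 to 0.80), or 1.37-fold (unadjusted p = 0.0147, adjusted p = 0.944 from limma, rank 315 by p among all probe sets). The exact permutation test gave p = 0.114 (two-sided). The unadjusted p was 0.0661 without SL8 (adjusted p = 0.999) and 0.0629 without SL12 (adjusted p = 0.964). No single direction holds for fasn-1 as a gene.

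The gene pod-2 (190496_s_at) encodes acetyl-CoA carboxylase, which supplies malonyl-CoA to fatty acid synthase. Its values were 2.84 on SL1, 2.84 on SL5, 3.80 on SL9 and 2.93 on SL69, and 3.29 on SL4, 3.28 on SL8 and 3.60 on SL12. The 13L arrays lay above 3 of the NGM arrays, and SL9 lay above all of them. The difference was 0.29 (95% interval -0.23 to 0.81, unadjusted p = 0.24, adjusted p = 0.95 from limma). Without SL9, the groups no longer overlapped and the difference was 0.52 (unadjusted p = 0.00209, adjusted p = 0.831). The regulator gene sbp-1 (192735_s_at) had the narrowest range of the 11, from 2.95 on SL69 to 3.20 on SL8. Its remaining values were 3.18 on SL1, 2.98 on SL5 and 3.13 on SL9 with NGM, and 3.07 on SL4 and 3.15 on SL12 with 13L. The difference of 0.08 had a 95% interval of -0.13 to 0.29, which leaves out a change beyond 1.23-fold. The probe sets of pod-2 and sbp-1 also carry the suffix _s_at.

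**Figure D4:**
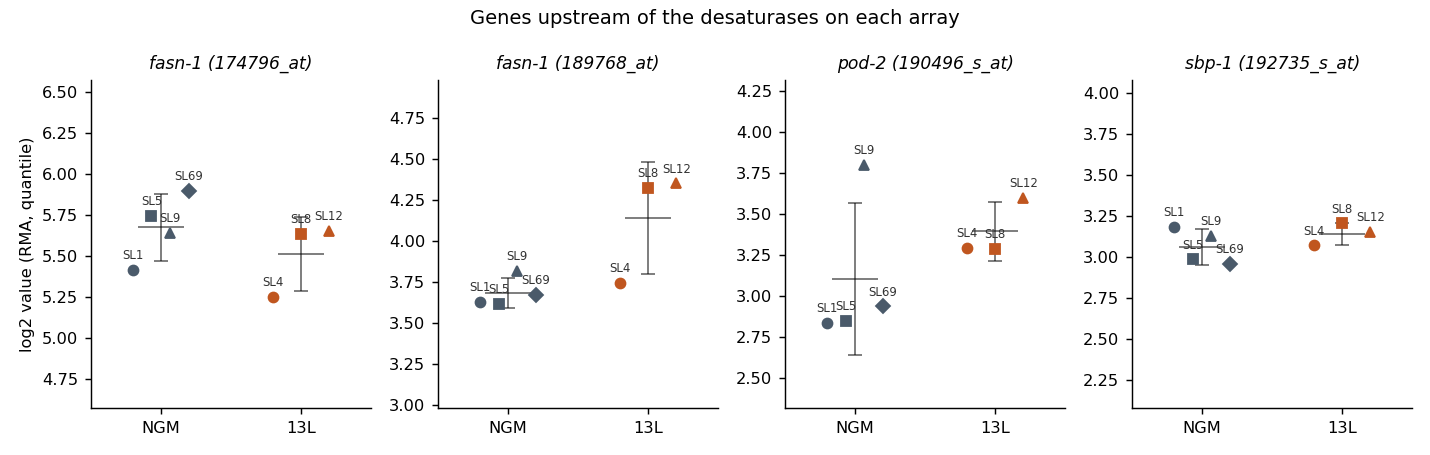
Log2 values of the 4 probe sets of fasn-1, pod-2 and sbp-1 (y axis) for NGM and 13L (x axis), with 1 point per array, the group mean as a bar and 1 SD as whiskers. The probe sets of fasn-1 differ by -0.16 and 0.46 between the diets, and SL9 stands apart from the other NGM arrays for pod-2 (3.80).

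Other genes of lipid synthesis were grouped by role, with the brightest probe set standing for each gene. Of 4 genes that pass electrons to the desaturases, cytochrome b5 and its reductases, 1 had a difference above 0 and 3 below 0 (median -0.05). The differences with the largest moderated t were -0.15 for the cytochrome b5 gene cytb-5.2 and -0.06 for T05H4.4. At an unadjusted p under 0.05, 0 were higher, beside 2.54% of all probe sets, and 0 were lower, beside 2.57%. Of 10 genes known to regulate desaturase genes or membrane unsaturation, 3 had a difference above 0 and 7 below 0 (median -0.05). Of these, 1 was lower at an unadjusted p under 0.05, beside 2.57% of all probe sets, and 0 were higher, beside 2.54%. It was scp-1, the homologue of the SREBP escort protein SCAP, with 3.00 on SL1, 3.16 on SL5, 2.91 on SL9 and 3.01 on SL69, and 2.84 on SL4, 2.87 on SL8 and 2.49 on SL12. All 13L arrays lay below the NGM arrays, as for 2.77% of all probe sets, and the difference was -0.29 (95% interval -0.55 to -0.02, unadjusted p = 0.0358, adjusted p = 0.944 from limma), with -0.18 and an overlap on its dimmer probe set.

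The Mediator subunit gene mdt-15, a coactivator for SBP-1 and for nuclear receptors that act on fat-5, fat-6 and fat-7, was looked at after its values were seen. It had 3.26 on SL1, 3.37 on SL5, 3.29 on SL9 and 3.48 on SL69, and 3.21 on SL4, 4.10 on SL8 and 4.05 on SL12. SL8 and SL12 stood above the NGM arrays and SL4 below them, which are the same 2 high arrays as on the dimmer probe set of fasn-1. The difference was 0.44 (95% interval -0.02 to 0.89, unadjusted p = 0.0589, adjusted p = 0.944 from limma).

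Of 11 measured genes of fatty acid elongation, 4 had a difference above 0 and 7 below 0 (median -0.02). At an unadjusted p under 0.05, 1 was higher, beside 2.54% of all probe sets, and 0 were lower, beside 2.57%. It was the elongase gene elo-3. Its values were 2.12 on SL1, 1.83 on SL5, 1.40 on SL9 and 1.58 on SL69, and 2.34 on SL4, 2.53 on SL8 and 2.01 on SL12, so the groups overlapped only between SL12 and SL1. The difference was 0.56 (95% interval 0.14 to 0.98, unadjusted p = 0.0142, adjusted p = 0.944 from limma). Of 6 genes that supply acetyl-CoA, malonyl-CoA balance or NADPH, 3 had a difference above 0 and 3 below 0 (median -0.01). Those with the largest moderated t were 0.16 for the ATP citrate lyase gene acly-2 and 0.10 for the malonyl-CoA decarboxylase gene mlcd-1.

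Of 15 genes of phospholipid and triglyceride synthesis, 6 had a difference above 0 and 9 below 0 (median -0.06), with 0 at an unadjusted p under 0.05 on the brightest probe sets. The phosphotransferase gene cept-1 differed by 0.22 and the acyltransferase gene acl-5 by -0.24. The groups did not overlap for pmt-1, of phosphatidylcholine synthesis, at 0.14 and for mboa-6 at -0.13, both named after their values were seen, as they did not for 3.31% of all probe sets in the higher and 2.77% in the lower direction. Of 5 measured genes of fat storage and release, 3 had a difference above 0 and 2 below 0 (median 0.04). On the brightest probe sets, 1 was higher at an unadjusted p under 0.05, beside 2.54% of all probe sets, and 0 were lower, beside 2.57%. The gene was dhs-3, of a lipid droplet protein, with 6.03 on SL1, 6.08 on SL5, 6.09 on SL9 and 5.95 on SL69, and 6.32 on SL4, 6.19 on SL8 and 6.61 on SL12. All 13L arrays lay above the NGM arrays, as for 3.31% of all probe sets, with a difference of 0.34 (95% interval 0.08 to 0.59, unadjusted p = 0.0163, adjusted p = 0.944 from limma), and the dimmer probe set differed by 0.16 with an overlap.

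**Figure D5:**
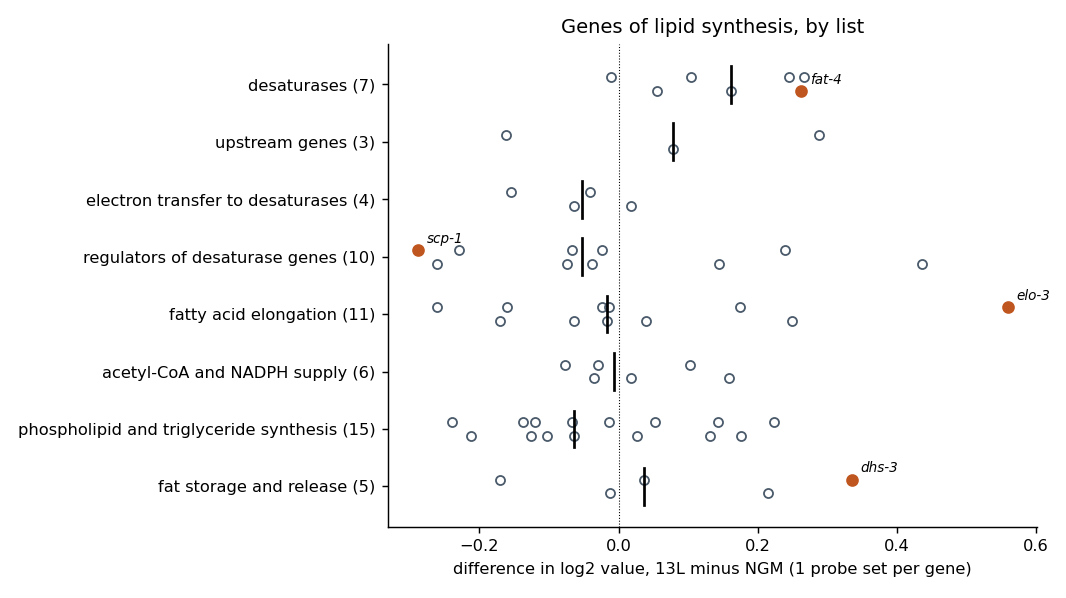
Difference in log2 value between 13L and NGM (x axis) for single genes of each list (y axis, number of measured genes in brackets), with filled points at an unadjusted p under 0.05 and a bar at the median. The medians run from -0.06 for phospholipid and triglyceride synthesis to 0.16 for the desaturases, and none of the genes passed the adjusted test.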

How the data were processed

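Biotin-labelled RNA of whole worms was hybridized to Affymetrix C. elegans Genome Arrays, 1 per sample (7 arrays). The values deposited by the authors are log2 intensities per probe set after RMA background correction and quantile normalization. RMA and limma are named in the submitters' processing notes, with versions not given in the sources used here. How the scale was offset is unknown, and the analysis began from these values. Leaving out 77 controls of 22625 probe sets left 22548, which were named by the platform annotation with symbols updated from a gene table (20766 had 1 gene, 887 several and 895 none). The study's methods speak of 4 biological replicates per condition. For 13L, 3 arrays are analysed here. All 7 arrays held different values.

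Diets were compared on all 22548 probe sets at once by the moderated test of limma 3.58.1 (R 4.3.3), two-sided and without a trend, with p-values adjusted by Benjamini-Hochberg over the array and a threshold of 0.05. Single values and 5 within-array differences were tested by exact permutation (scipy 1.17.1), with intervals of the latter from the pooled variance. The members and lists were chosen with earlier results of these data known, so lists were described by counts and medians, without a test. The brightest probe set stood for a gene of a list, and elo-8 and seip-1 had no probe set of their own here. Within each further pathway list, the text names members at an unadjusted p under 0.05 or else the 2 with the largest moderated t, and the 3 genes closest in profile to fat-5, fat-6 and fat-7. Single markers and a few other genes were picked with their values in view. The limma fit without blocks was tested on simulated data, and the permutation test on small constructed cases. The other steps were not tested in this way. The number of arrays limits the precision, and p-values measure the spread between these arrays.

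As alternatives, single arrays or SL1 and SL69 were left out, limma was run with trend, robust settings or array weights, arrays were centred on the median or fitted by cyclic loess, dim probe sets were dropped, a gene's probe sets were averaged, and runs of title numbers served as blocks. Leaving out probe sets with the suffix _s_at or _x_at was added after the data were seen. Deviations from the group means correlated at 0.529 in the run of SL1 and SL4, 0.156 in that of SL5 and SL8, and 0.537 in that of SL9 and SL12. Between an NGM and a 13L array of different runs they correlated at -0.443 to 0.211, the highest for SL5 with SL12, so SL5 did not correlate best with the array of its own run.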

Additional observations from a re-analysis of the deposited data

Results flagged for a closer look

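In the NGM group, SL9 stood apart for 2 of the 11 probe sets. For fat-2 its value was 7.23, the lowest of the 4 arrays, with the others between 7.47 and 7.52. For pod-2 its value was 3.80, the highest, with the others between 2.84 and 2.93. In each case the gap to the nearest array, divided by the range of the group, exceeded Dixon's 95% critical value for 4 samples, by a narrow margin for fat-2 (0.83) and by more for pod-2 (0.898). The test was run on 31 groups of values, and chance flags about 1 in 20.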

How the results depend on the processing

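No alternative gave an adjusted p under 0.05 for any of the 11 probe sets. The number of the 11 at an unadjusted p under 0.05, 2 as reported, was 0 without SL1 and SL69 and between 1 and 3 with single arrays left out. With single arrays left out, the differences ran from -0.021 to 0.10 for fat-1, -0.10 to 0.091 for fat-3 and -0.27 to 0.34 for fat-7, so their direction is not set. With the runs of title numbers as blocks they were -0.021, 0.047 and -0.0030, and without SL1 and SL69 they were -0.0041, 0.035 and -0.34. With array weights the difference was -0.073 for fat-7. Within arrays and with single arrays left out, fat-6 minus fat-7 ran from -0.17 to 0.60, fat-5 minus fat-6 from -0.12 to 0.17 and fat-5 minus fat-7 from -0.15 to 0.74. The cause of these turns was not tested. No paired analysis was possible because the labels give the groups no shared replicate numbers, and the block fit above takes its pairs from runs of title numbers alone. The other 8 probe sets kept their direction under every alternative that included them.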
